A study of Mus musculus with 6 samples.

Results

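The genes described here encode the heat shock protein 70 (HSP70) and HSP90 chaperones and the mitochondrial chaperonin, with 2 HSP70 partners: Hspa8, Hspa1a, Hspa1b, Hspa5, Hsph1, Dnajb1, Hsp90aa1, Hsp90ab1, Hspd1 and Hspe1. They were taken by exact gene symbol, and all 10 were found among the 19458 genes of the tables of each of the 6 libraries. RNA-seq had been made from gastrocnemius, the large calf muscle, of C57BL/6 mice aged 9 weeks, with 3 libraries from tmem182-/- mice and 3 from wild-type mice. Tmem182 encodes a membrane protein of striated muscle, and the design sets muscle transcripts without it against those with it. The sources used here do not say how the knockout allele was made or whether the libraries come from different mice, so every p-value reflects the spread among these 6 libraries, part of which may be technical. The source names of knockout libraries 2 and 3 give tmem183-/- and tmem184-/-, whereas the genotype field gives tmem182-/- for all 3. The protocol field mentions cells in culture, while the tissue and source fields, which were followed, give muscle.

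HSP70 proteins bind exposed hydrophobic stretches of unfolded proteins and release them in a cycle driven by ATP. J-domain proteins such as the product of Dnajb1 bring clients and start ATP hydrolysis, and nucleotide exchange factors such as the product of Hsph1 end the cycle. HSP90 acts later on kinases, receptors and, in muscle, on folding myosin, and Hspd1 and Hspe1 encode the barrel and the lid of the chamber in which imported proteins fold inside mitochondria. Heat shock factor 1 raises transcription of many of these genes under heat, exercise or other protein stress through heat shock elements, which are repeats of GAA in alternating orientation.

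Promoter stretches are printed for the near-identical pair Hspa1a and Hspa1b and for 4 genes that hold a known stress element. Whether these stretches bear on the transcript values was not tested. The sequences are from RefSeq on GRCm38.p6, written 5′ to 3′ on the strand of the gene, and 7 of the 10 genes had an entry; Hspa8, Hsp90aa1 and Hsp90ab1 had none. In the first pair, which covers the 150 bases before the start of each transcript, capitals mark a match to GAANNTTC and the CCAAT box on the opposite strand.
Hspa1a, chr17:34972157-34972306, minus strand: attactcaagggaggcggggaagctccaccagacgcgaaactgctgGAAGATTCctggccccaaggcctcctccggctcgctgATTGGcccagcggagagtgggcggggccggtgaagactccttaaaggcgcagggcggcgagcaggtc
Hspa1b, chr17:34959239-34959388, minus strand: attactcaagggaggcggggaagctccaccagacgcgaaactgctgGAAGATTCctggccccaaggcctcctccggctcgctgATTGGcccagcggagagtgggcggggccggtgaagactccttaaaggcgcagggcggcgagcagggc
These stretches differed at 1 of 150 bases, and the full windows of 300 bases, from 250 before to 50 after the start, at 4. The match to GAANNTTC lay at the same place in both, from -104 to -97 counted from the transcript start, and 7.86% of all 32851 promoter windows of this length held one on either strand.

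Hspd1 and Hspe1 lie head to head on chromosome 1, and their windows share a longer heat shock element. Capitals mark matches, on either strand and partly overlapping, to 3 units (GAA, 2 bases, TTC, 2 bases, GAA).
Hspe1, chr1:55088053-55088082, plus strand: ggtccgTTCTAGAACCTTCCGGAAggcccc
Hspd1, chr1:55088053-55088082, minus strand: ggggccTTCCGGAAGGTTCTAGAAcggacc
Hsph1, chr5:149636278-149636307, minus strand: ctgcagaTTCTGGAAAGTTCtcctcagtag
The first and second lines are the same bases read from either strand, lying before a start of each gene. For Hspd1 that start is an inner one at 55087932, and GENCODE M21 places these bases in the first exon of an Hspd1 transcript that begins further upstream, at 55088243. The stretches of Hsph1 and Hspa5 also overlap annotated exons of their own genes. The third is from Hsph1, where the match runs from 16 to 28 bases after one of its starts. Such a match of 3 units was in 0.603% of all windows. In Hspa5 the capitals mark a match to the endoplasmic reticulum (ER) stress element (CCAAT, 9 bases, CCACG), which 0.119% of all windows held on either strand. By its letters any such match contains a CCAAT box.
Hspa5, chr2:34772020-34772049, plus strand: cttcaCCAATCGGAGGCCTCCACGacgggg
The Hspa5 window held no match to GAANNTTC, TTCNNGAA or the longer form, nor did Dnajb1 have one.

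Depth was 16212341 to 18672630 expected counts per library, and the 6 defining muscle genes (Acta1, Ckm, Myh4, Mylpf, Des and Ttn) summed to between 57000 and 82300 FPKM. FPKM is the number of fragments per kilobase of transcript, scaled to the library's depth, as deposited. Tmem182 was at 6.23, 4.30 and 2.17 FPKM in knockout libraries 1, 2 and 3 and at 147.48, 121.39 and 120.97 FPKM in wild-type libraries 1, 2 and 3. Knockout library 1 stood apart from the other 5: its 10 most abundant genes took 22.0% of counts against 28.2% to 31.9%, and its TMM factor (edgeR's correction of the library size) was 1.19 against 0.93 to 1.04. On the deposited FPKM scale, which has no such correction, that library was the highest of the 6 for 61.5% of all genes tested, and after TMM scaling for 29.9%. Differences between groups are therefore given from counts scaled by TMM, and FPKM values serve to show levels.

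The chaperone genes were all higher on average in the knockout, but none passed the test, and each was highest in knockout library 1. All 10 passed the filter on low counts and had a fitted log2 fold change above 0, as did 51.1% of the 12775 genes tested. The median over the 10 was 0.33 on the log2 scale, against 0.00 over all genes tested. edgeR's quasi-likelihood test called 0 of the 10 in either direction (adjusted p = 0.994 for each), where 0.00783% of all genes tested, Tmem182 alone, passed. Tmem182 had adjusted p = 0.00392 by edgeR, which became 0.0716 when knockout library 2 was left out and 0.053 when wild-type library 3 was. By edgeR an unadjusted p under 0.05 was reached by 1 of the 10, Hspa5, against 3.55% of all genes tested in either direction (2.07% higher, 1.48% lower). DESeq2 also called 0 of the 10, against 0.047% of all genes tested. After TMM scaling knockout library 1 was the highest of the 6 libraries for 10 of 10 chaperone genes, against 29.9% of all genes tested, and wild-type library 2 was the lowest for 6 of 10, against 22.7%. Without knockout library 1 the median log2 fold change of the 10 was 0.10, with 7 above 0 (48.4% of all genes tested in that fit), and edgeR called 0 of them, against 0.00777% of all genes in that fit.

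**Figure D1:**
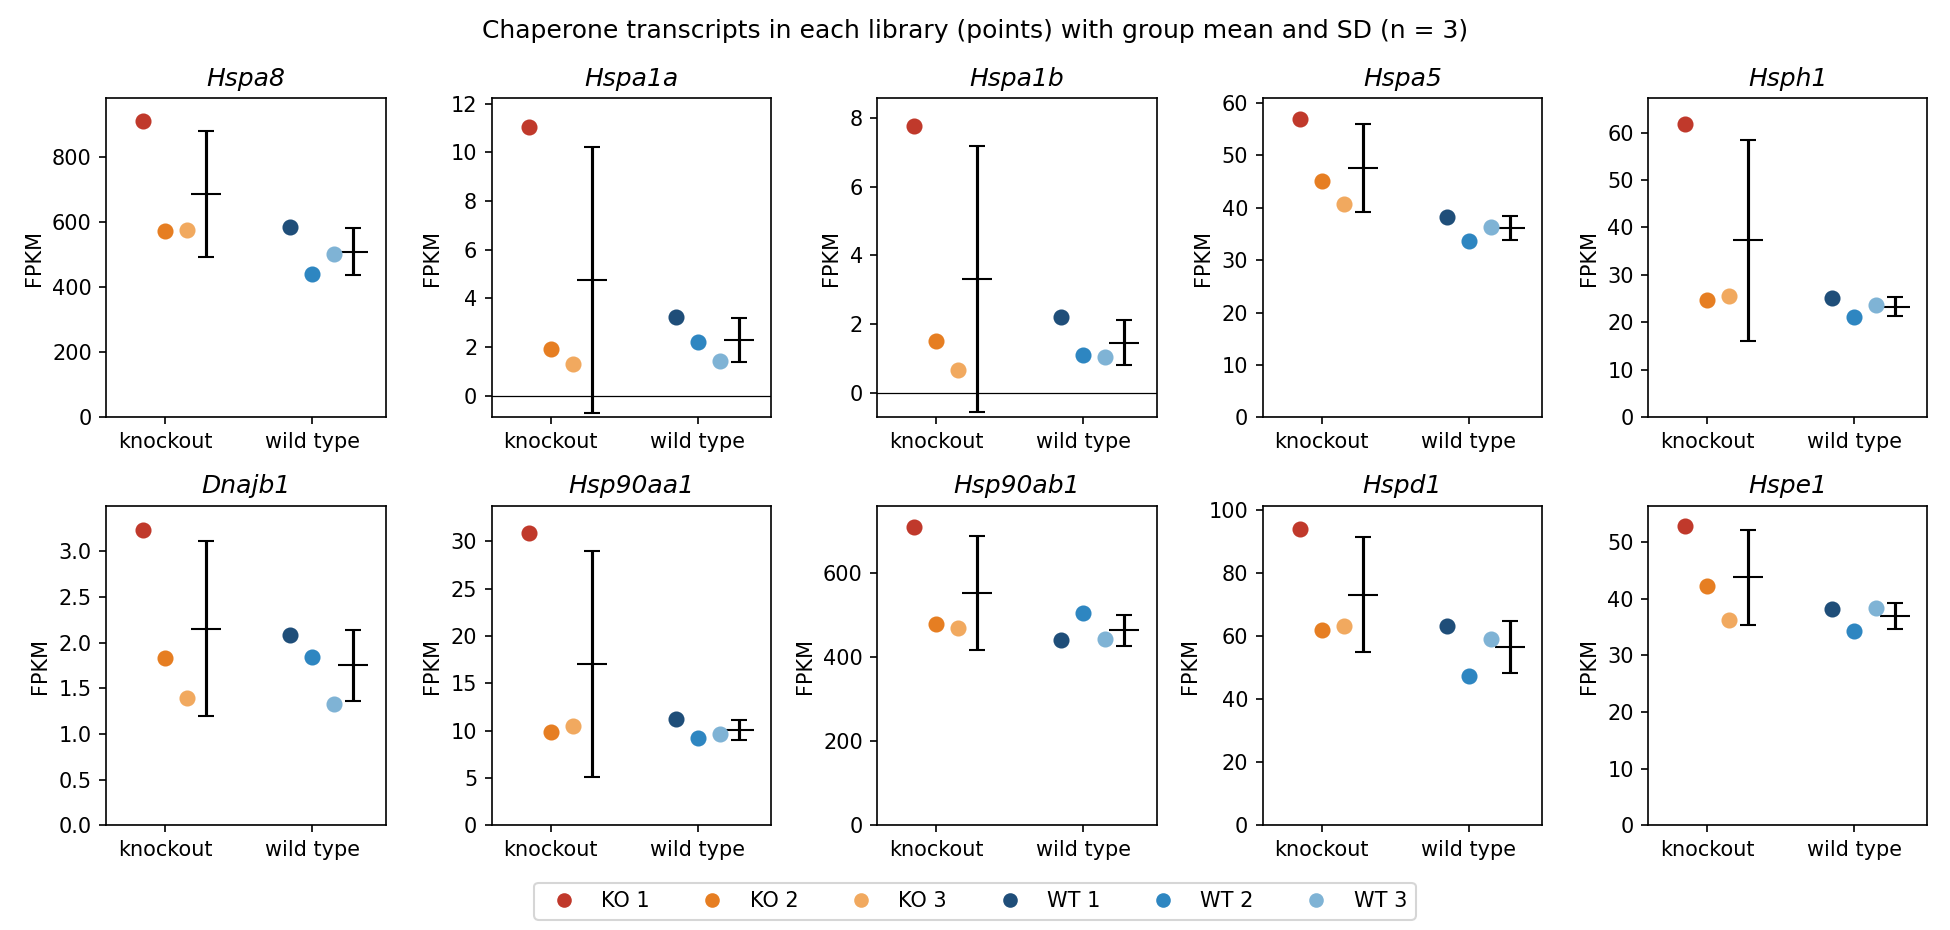
Deposited FPKM (vertical axis, linear, 1 panel per gene) of each library (points), with the mean and SD of the 3 knockout and 3 wild-type libraries (black bars). Knockout library 1, in red, is the highest point in each panel, and for Hspa5 alone the other knockout libraries also lie above all 3 wild-type libraries.

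Levels spanned more than 2 orders of magnitude. Hspa8 was the most abundant of the 10 at a mean of 597 FPKM over the 6 libraries, followed by Hsp90ab1 at 508, Hspd1 at 64.8, Hspa5 at 41.8, Hspe1 at 40.3, Hsph1 at 30.3, Hsp90aa1 at 13.6, Hspa1a at 3.52, Hspa1b at 2.38 and Dnajb1 at 1.95 FPKM. Only the step from Hsp90ab1 to Hspd1 separated neighbours whose ranges over libraries did not overlap. Some neighbours with overlapping ranges still kept their order within each library: Hspd1 was above Hspa5, Hsph1 above Hsp90aa1, Hsp90aa1 above Hspa1a and Hspa1a above Hspa1b in 6 of 6 libraries. Hspa8 was above Hsp90ab1 in 5 of 6, wild-type library 2 being the exception, and Hspa1b was above Dnajb1 in 2. The stress-inducible members of each family were thus far below their constitutive relatives in this muscle, Hspa1a and Hspa1b below Hspa8 and Hsp90aa1 below Hsp90ab1, in each of the 6 libraries.

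Hspa8 encodes HSC70, the constitutive cytosolic HSP70 (Entrez 15481, chromosome 9, 40800984 to 40810087, plus strand of GRCm38). It was at 909.87, 572.68 and 576.33 FPKM in knockouts 1 to 3 and at 583.66, 439.17 and 501.29 FPKM in wild types 1 to 3. Knockout libraries 2 and 3 thus lay at the level of wild-type library 1, while knockout library 1 was above the rest and wild-type library 2 below. The means were 686 ± 194 FPKM over the knockouts and 508 ± 72.5 FPKM over the wild types (± SD, n = 3 each). Its log2 fold change was 0.35 (SE 0.16, 95% interval -0.03 to 0.72). After TMM scaling the groups did not overlap, with 1610, 1260 and 1290 CPM (counts scaled to library size) against 1180, 963 and 1130 CPM. Without knockout library 1 the log2 fold change was 0.22, with an interval of -0.07 to 0.52. Its counts were whole numbers in 6 of 6 libraries, so they show no division of reads with other genes. Within it lie 3 small nucleolar RNA genes on the same strand.

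Hspa1a and Hspa1b encode the stress-inducible cytosolic HSP70, from neighbouring genes on the minus strand of chromosome 17 (Hspa1a, Entrez 193740, 34969190 to 34972156; Hspa1b, Entrez 15511, 34956436 to 34959238). Hspa1a was at 11.06, 1.92 and 1.29 FPKM in knockouts 1 to 3 and at 3.23, 2.21 and 1.43 FPKM in wild types 1 to 3. Hspa1b was at 7.77, 1.49 and 0.66 FPKM against 2.21, 1.11 and 1.04 FPKM. In both genes knockout library 1 was far above all other libraries and knockout library 3 was the lowest of the 6 after TMM scaling, so the knockout libraries enclosed the wild-type ones. The spread within the knockout was 6.64-fold for Hspa1a and 8.98-fold for Hspa1b, against 1.99-fold and 1.88-fold within wild type. These spreads were taken from log2 CPM with a prior count of 2, which makes them slightly smaller than on the CPM scale. Fitted log2 fold changes were 0.88 (SE 0.68, interval -0.71 to 2.46) for Hspa1a and 1.01 (SE 0.73, interval -0.70 to 2.71) for Hspa1b. Without knockout library 1 both turned negative, at -0.46 (interval -1.19 to 0.27) and -0.38 (interval -1.35 to 0.59).

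The division of reads between Hspa1a and Hspa1b is uncertain, because the genes are nearly the same. Their coding sequences, taken as the longest reading frame of the GENCODE M21 transcripts, differed at 8 of 1926 aligned bases, and 82.3% of the 50-base words of Hspa1a occurred in Hspa1b. Of the counts of the pair, Hspa1a held 58.6%, 56.2% and 65.9% in knockouts 1 to 3 and 59.3%, 66.4% and 57.8% in wild type. The sum does not rest on the division between these 2 genes. It was 859.21, 172.65 and 98.15 expected counts in knockouts 1 to 3 and 269.57, 174.40 and 125.66 in wild type. These sums were not whole either. Hspa1l, the HSP70 gene next to Hspa1a, had 979.79, 489.35 and 382.84 expected counts in knockouts 1 to 3 and 435.43, 471.6 and 373.34 in wild type. The fractions of the sums and of Hspa1l complete each other to within rounding. The sum thus still rests on how reads were divided with Hspa1l. With the 2 genes summed before the fit the log2 fold change was 0.93 (SE 0.69), and the high value of knockout library 1 was as plain as in either gene. Hspa1a also overlaps Gm20481, a gene model on the opposite strand, and whether reads were counted by strand is not stated in the sources.

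Hspa5 was the gene whose groups were apart on both scales. It encodes BiP, the HSP70 of the endoplasmic reticulum and a main target of the unfolded protein response (Entrez 14828, chromosome 2, 34771970 to 34777547, plus strand). It was at 56.86, 45.03 and 40.71 FPKM in knockouts 1 to 3 and at 38.28, 33.73 and 36.36 FPKM in wild types 1 to 3. All 3 knockout libraries lay above all 3 wild-type libraries on this scale, where Hspa5 was the 1 gene of the 10 of which that was true, against 5.86% of all genes tested. After TMM scaling the values were 122, 120 and 110 CPM against 93.6, 89.6 and 99.6 CPM, so knockout libraries 1 and 2 were nearly level. Knockout over wild type was 0.32 on the log2 scale (SE 0.10, 95% interval 0.09 to 0.54; edgeR adjusted p = 0.994). The two-sided exact permutation test of log2 CPM had p = 0.1, which is the lower limit of a design with 3 libraries a group. Without knockout library 1 the log2 fold change was 0.29 (interval 0.06 to 0.51), and over the 14 alternative fits it ran from 0.28 to 0.39, with unadjusted p from 0.00652 to 0.0486 and adjusted p from 0.524 to 1.

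**Figure D2:**
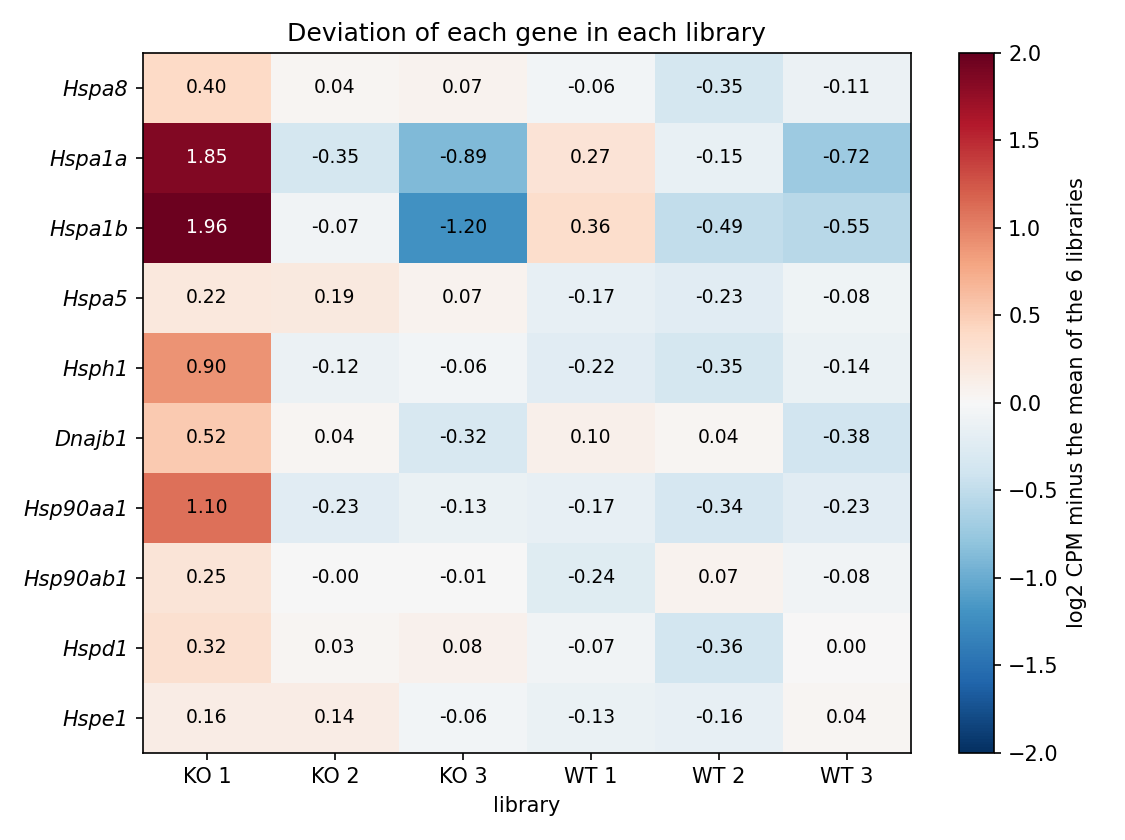
Log2 CPM (TMM-scaled) of each chaperone gene (rows) in each library (columns), minus the gene's mean over the 6 libraries; red is above and blue below that mean. Knockout library 1 stands at 1.85 and 1.96 for Hspa1a and Hspa1b, 1.10 for Hsp90aa1 and 0.90 for Hsph1, but at 0.22 for Hspa5, where knockout libraries 2 and 3 are also above 0.

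Hsph1 encodes HSP110, a nucleotide exchange factor for HSP70 (Entrez 15505, chromosome 5, 149614287 to 149636376, minus strand). It was at 61.78, 24.63 and 25.49 FPKM in knockouts 1 to 3 and at 25.16, 21.18 and 23.62 FPKM in wild types 1 to 3. Knockout library 1 was again alone, and the other 5 libraries spanned 21.18 to 25.49 FPKM. On the CPM scale knockout library 1 was 1.98 times the mean of the other knockout libraries. The fitted log2 difference was 0.56 (SE 0.27, interval -0.06 to 1.17), and 0.14 (interval -0.09 to 0.38) without that library. Counts of Hsph1 were not whole in any of the 6 libraries, unlike those of Hspa5 and Hspa8.

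Dnajb1 encodes HSP40, the J-domain partner of the inducible HSP70, and was the least abundant of the 10 genes (Entrez 81489, chromosome 8, 83608193 to 83612653, plus strand). It was at 3.23, 1.83 and 1.40 FPKM in knockouts 1 to 3 and at 2.09, 1.84 and 1.33 FPKM in wild types 1 to 3, from 72.89 to 156.78 expected counts. Counts of Dnajb1 were whole in only 1 of the 6 libraries. Apart from knockout library 1 the groups covered the same range. On the log2 scale the difference was 0.19 (SE 0.25, interval -0.38 to 0.77) and turned to -0.07 (interval -0.57 to 0.44) without knockout library 1.

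Hsp90aa1 encodes the inducible form of cytosolic HSP90 (Entrez 15519, chromosome 12, 110690605 to 110702728, minus strand). Its 6 values were 30.85, 9.91 and 10.48 FPKM in knockouts 1 to 3 and 11.27, 9.22 and 9.66 FPKM in wild types 1 to 3. The mean of 17.1 ± 11.9 FPKM over the knockouts against 10.1 ± 1.08 FPKM over the wild types (± SD, n = 3 each) rested on knockout library 1. The log2 fold change of 0.63 (SE 0.34, interval -0.15 to 1.41) was 0.07 (interval -0.17 to 0.30) without it.

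Hsp90ab1 encodes the constitutive form (Entrez 15516, chromosome 17, 45567775 to 45573271, minus strand). It was at 709.54, 479.42 and 469.11 FPKM in knockouts 1 to 3 and at 442.01, 506.36 and 443.78 FPKM in wild types 1 to 3. After TMM scaling knockout library 1, at 1500 CPM, was closest to wild-type library 2, at 1330 CPM, and the groups overlapped. The difference on the log2 scale was 0.16 (SE 0.15, interval -0.19 to 0.52). The coding sequences of the HSP90 pair were 76.8% identical and shared no word of 50 bases, and counts of both genes were whole numbers in all 6 libraries, unlike those of the Hspa1a and Hspa1b pair.

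Hspd1 and Hspe1 encode HSP60 and HSP10, the mitochondrial chaperonin and its lid (Hspd1, Entrez 15510, chromosome 1, 55077835 to 55088243, minus strand; Hspe1, Entrez 15528, 55088132 to 55091307, plus strand). Hspd1 was at 94.02, 61.91 and 63.05 FPKM in knockouts 1 to 3 and at 63.01, 47.33 and 59.20 FPKM in wild types 1 to 3. Hspe1 was at 52.72, 42.24 and 36.21 FPKM against 38.10, 34.23 and 38.37 FPKM. Wild-type library 2 was the lowest for both after TMM scaling, and the excess of knockout library 1 over the mean of the other knockout libraries was 1.2-fold for Hspd1 and 1.08-fold for Hspe1, against 5.52-fold and 5.80-fold for Hspa1a and Hspa1b. Log2 fold changes were 0.29 (SE 0.14, interval -0.03 to 0.60) for Hspd1 and 0.16 (SE 0.11, interval -0.08 to 0.41) for Hspe1. The gene spans overlap at their starts on opposite strands, and GENCODE M21 names 5 pseudogenes of Hspd1 and 6 of Hspe1. Counts of neither gene were whole in any of the 6 libraries. Their fractions complete each other in each library, as with 3577.23 and 635.77 expected counts in knockout library 1. Reads were thus divided between Hspd1 and Hspe1, and both are less certain than Hspa5 or Hspa8.

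After TMM scaling the knockout libraries lay above all wild-type libraries for 4 of the 10 genes (Hspa8, Hspa5, Hspd1 and Hsph1), where 4.7% of all genes tested did so. On the deposited FPKM scale this held for Hspa5 alone, so for Hspa8, Hspd1 and Hsph1 it depended on the scaling. The exact permutation test gave its smallest possible value, p = 0.1, for these 4 genes, and the other 6 gave p between 0.2 and 0.9.

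**Figure D3:**
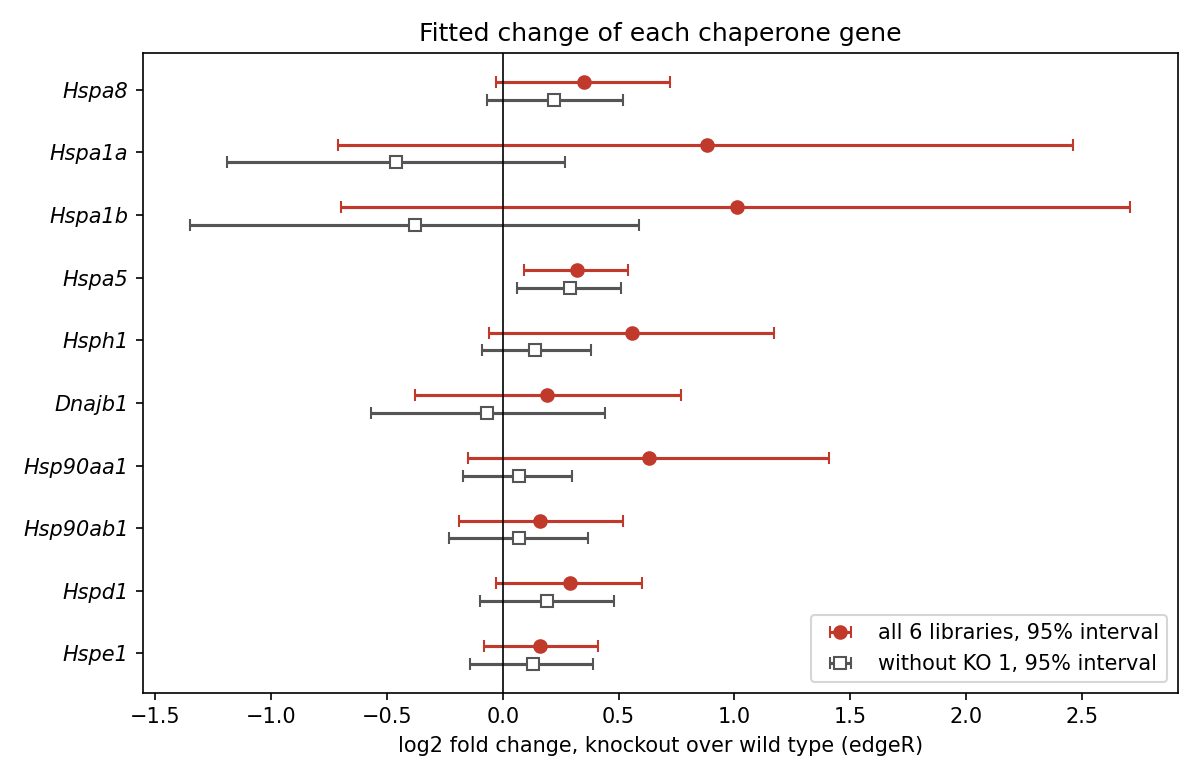
Log2 fold change of knockout over wild type (horizontal axis) for each gene from edgeR with all 6 libraries (filled red circles) and without knockout library 1 (open squares); bars are 95% intervals. Hspa5 is the one gene whose interval lies above 0 in both fits, and Hspa1a, Hspa1b and Dnajb1 change sign.

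The 10 genes differed in how alike their patterns were over the libraries. Likeness was measured as the root mean square difference between the log2 CPM deviations of 2 genes over the 6 libraries, where 0 is the same pattern. The measure is not scaled to the size of the deviations, so genes that vary little tend to lie closer. The nearest other member was Hspa1b for Hspa1a, at 0.238, Hsph1 for Hsp90aa1, at 0.106, and Hspd1 for Hspa8, at 0.058, each in both directions. The values of Hspa1a and Hspa1b are not independent, since 82.3% of the 50-base words of Hspa1a occurred in Hspa1b. Hspe1 was nearest to Hspa5 and Hspa5 to Hspe1, at 0.084. For Hsp90ab1 the nearest was Hspe1, at 0.139, and for Dnajb1 it was Hsp90ab1, at 0.250, neither of them in both directions. Among 6128 genes with at least 5 FPKM on average, the nearest to Hspa1a was G0s2, an inhibitor of adipocyte lipase, at 27.90 FPKM in knockout library 1 and 4.49 to 12.04 FPKM in the others (0.266), followed by Cilp, a matrix protein gene (0.373). These 2 were also nearest to Hspa1b, at 0.285 and 0.358. Ecm1, which encodes an extracellular matrix protein, was nearest to Hsp90aa1 (0.090) and to Hsph1 (0.066), with 30.53 FPKM in knockout library 1 and 10.82 to 12.72 FPKM in the others; Anxa4 and Hes1 came next for these genes (0.110 and 0.105). For the other genes the nearest were Wipf3 and Mrrf to Hspa8, Trak2 and Ube2g2 to Hspa5, Hr and Brms1 to Hsp90ab1, Cast and Itgb1 to Hspd1, Mettl9 and Kif16b to Hspe1, and Zfp36 and Ly6c1 to Dnajb1, at 0.022 to 0.106.

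Of the genes for the rest of the chaperone system none passed edgeR's threshold in either direction, and none was among those DESeq2 called. Dnajc2, Chordc1 and Pdia6 were among those with an unadjusted edgeR p under 0.05, each higher in the knockout. Of 10 other HSP70 and HSP110 genes 0 passed, with 8 above 0, a median log2 fold change of 0.23 and knockout library 1 highest for 8. Hspa4l, an HSP110 relative, had a log2 fold change of 0.77 (SE 0.38) or 0.18 without knockout library 1, Hspa1l, the testis HSP70 next to Hspa1a, 0.50 (SE 0.28) or 0.09, and Hspa12b -0.25 (SE 0.15) or -0.27. In this muscle Hspa1l had a mean of 12.4 FPKM over all libraries, above the 3.52 FPKM of Hspa1a. Its counts were not whole in any library, so its level and this order depend on how reads were divided with Hspa1a and Hspa1b. Hsp90b1, the HSP90 of the endoplasmic reticulum, was at 44.13, 27.85 and 25.72 FPKM against 28.53, 19.19 and 24.65 FPKM in wild type (0.34 on the log2 scale, SE 0.17), and Trap1, the mitochondrial HSP90, at 55.92, 63.87 and 60.33 against 56.56, 66.02 and 58.59 FPKM (-0.06, SE 0.16). Trap1 was thus lower in knockout library 1 than in any other library on the FPKM scale, opposite to the cytosolic HSP90 genes.

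The median differences of the co-chaperone lists lay near 0. Of 33 tested J-domain genes 0 passed (median log2 fold change 0.05), and knockout library 1 was highest for 6, or 18.2%; Dnajc2, a ribosome-bound J-domain gene, had 0.32 (SE 0.10), Dnaja1, an HSP70 co-chaperone, 0.26 (SE 0.14), and Hscb, for iron-sulphur cluster transfer, 0.30 (SE 0.17). Among 13 nucleotide exchange factors and other HSP70 partners 0 passed (median 0.02), with St13 at 0.37 (SE 0.20), Grpel2 at -0.18 (SE 0.10) and Stip1, which hands clients from HSP70 to HSP90, at 0.22 (SE 0.15). In the 18 HSP90 co-chaperones 0 passed (median 0.05) and knockout library 1 was highest for 10; Chordc1 had 0.22 (SE 0.08), Tomm34 -0.24 (SE 0.11) and Ahsa2, an activator of the HSP90 ATPase, 0.19 (SE 0.11).

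Of the 4 genes listed as heat shock factors, which include the binding protein gene Hsbp1, 1 was highest in knockout library 1. Hsf1 was at 37.70, 32.37 and 35.44 FPKM in knockouts 1 to 3 and at 33.78, 40.12 and 30.49 FPKM in wild types 1 to 3, with a log2 fold change of -0.06 (SE 0.13). Hsf2 had one of 0.05 (SE 0.10), Hsf4 of -0.38 (SE 0.30) and Hsbp1, a binding protein of heat shock factor 1, of 0.01 (SE 0.10). Of 17 other known targets of heat shock factor 1, 0 passed, while 16 had a log2 fold change above 0 (median 0.22) and knockout library 1 was highest for 13. Without that library the median was 0.03. Chordc1 and Cacybp were among those with the smallest p, Cacybp at 0.36 (SE 0.17).

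Of 18 endoplasmic reticulum chaperone genes 0 passed, with 14 above 0, a median log2 fold change of 0.12 and 4 higher in each knockout library than in any wild-type library (4.7% of all genes tested); Pdia6, a disulphide isomerase, had 0.24 (SE 0.10) or 0.25 without knockout library 1, and Canx, the lectin chaperone calnexin, 0.30 (SE 0.15) or 0.16. Among 14 genes of the cytosolic chaperonin TRiC and of prefoldin 0 passed, 11 were above 0 (median 0.10, or 0.13 without knockout library 1), and that library was highest for 2. Of these 14 genes, 4 were also higher in each knockout library than in any wild-type library. The same held for 7 of the 33 J-domain genes, while 1 was lower in each knockout library than in any wild-type library. Of the 12775 genes tested, 576 were lower in this way. Among HSP90 co-chaperones 2 were higher and 2 lower, and among HSP70 exchange factors and partners 1 and 1. Mitochondrial chaperones and proteases had 2 higher and 1 lower, and the other heat shock factor 1 targets 2 and 0. The other HSP70 and HSP110 genes and the small heat shock proteins had 0 in either direction. For the TRiC subunits Cct4, Cct8 and Cct6a the log2 differences were 0.21 (SE 0.10), 0.19 (SE 0.10) and 0.14 (SE 0.09). Of 14 mitochondrial chaperones and proteases 0 passed (median 0.03), Grpel2, Hscb and Dnajc19 having the smallest p, and knockout library 1 was highest for 4. Small heat shock proteins, which hold unfolded proteins for HSP70, gave 0 of 7 past the threshold (median 0.19, or -0.04 without knockout library 1). Cryab, alpha-B crystallin, was at 1907.60, 526.48 and 454.05 FPKM against 785.38, 392.11 and 599.13 FPKM, and Hspb7, a heart and muscle member, at 335.20, 114.08 and 43.29 against 97.68, 26.94 and 66.04 FPKM, while Hspb3 had a log2 fold change of -0.25 (SE 0.19).

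**Figure D4:**
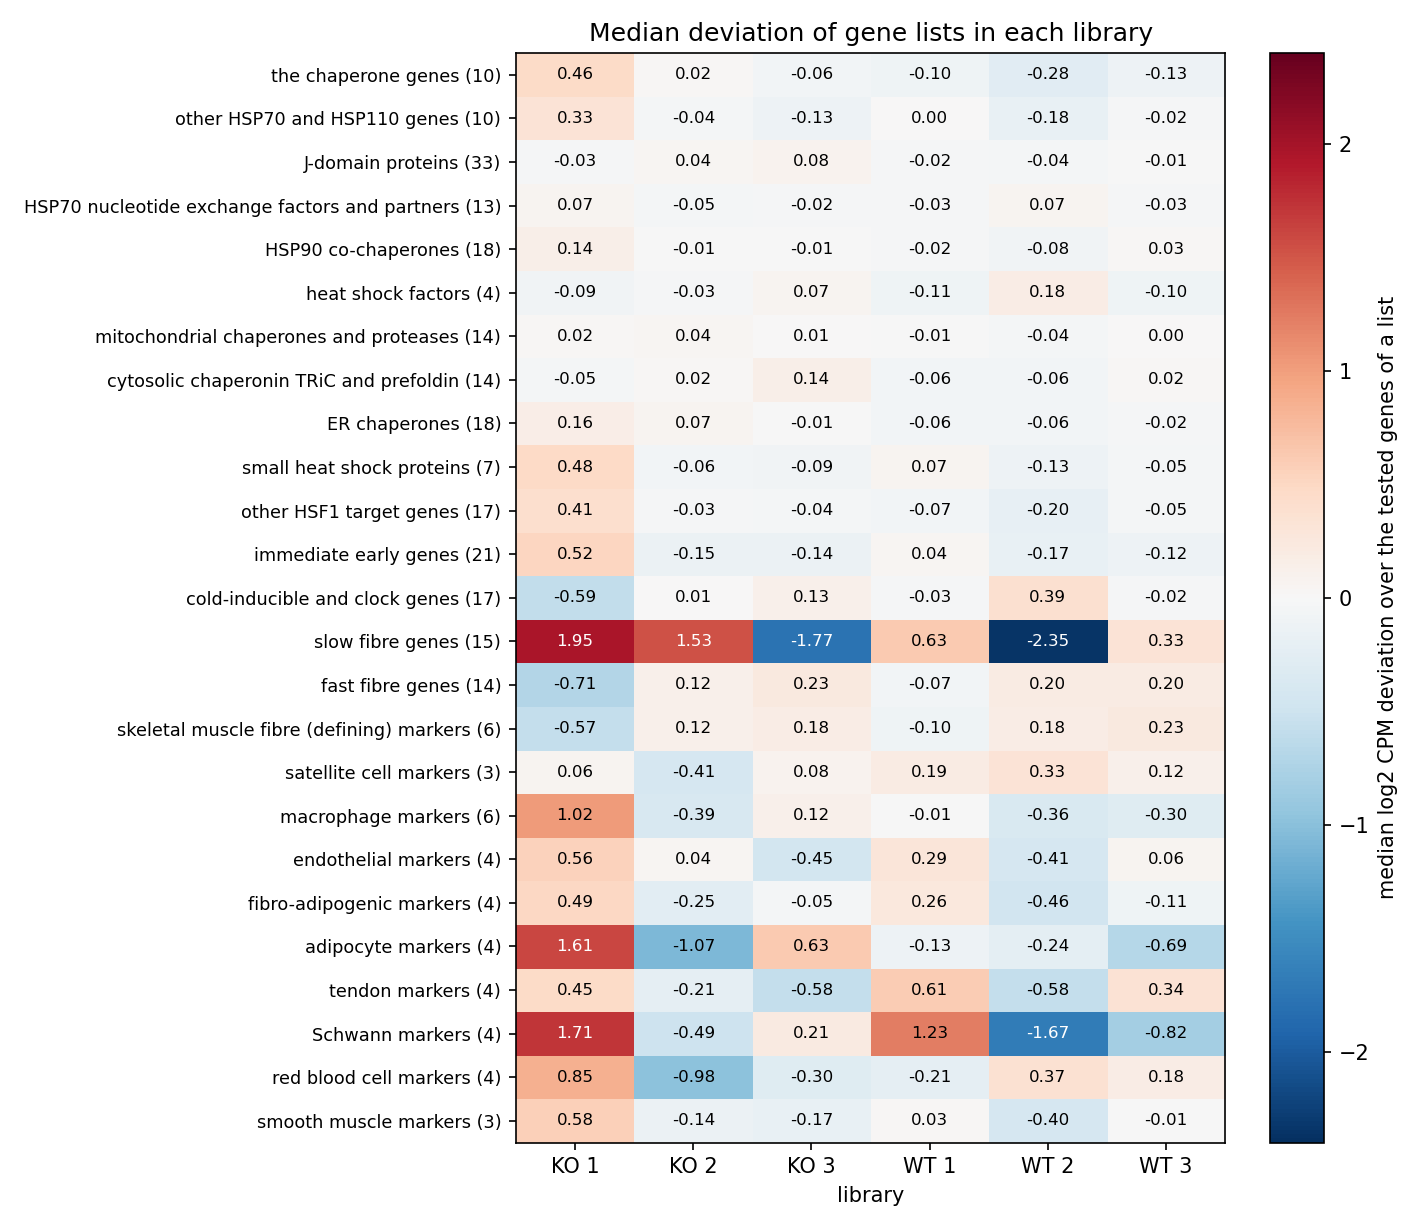
Median deviation of log2 CPM from the 6-library mean over the tested genes of each list (rows, number of genes in brackets) in each library (columns); red is above and blue below. In knockout library 1 the 10 chaperone genes are at 0.46, small heat shock proteins at 0.48 and other heat shock factor 1 targets at 0.41, while J-domain, mitochondrial and TRiC lists are near 0 and most lists of other cell types are higher.

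Markers of most other cell types were also highest in knockout library 1, and in bulk tissue more cells of a type and more RNA per cell cannot be told apart. Macrophage markers were highest there for 6 of 6 genes, summing to 44.8, 13.2 and 19.0 FPKM in knockouts 1 to 3 and 18.1, 13.5 and 13.9 FPKM in wild type. Endothelial markers were highest there for 4 of 4 (115.0, 67.2 and 47.1 against 85.2, 47.9 and 68.1 FPKM), as were Schwann cell (4 of 4; 299, 47.7 and 84.9 against 196, 19.3 and 36.8 FPKM), adipocyte (4 of 4; 217, 97.6 and 88.6 against 147, 77.0 and 105.0 FPKM, mostly Fabp4) and red blood cell markers (4 of 4; 1890, 443 and 683 against 790, 1100 and 965 FPKM). Of the adipocyte markers, Adipoq, Plin1 and Cidec were lowest in knockout library 2, and Adipoq was at 10, 0.78 and 2.99 against 1.17, 1.45 and 1.09 FPKM. Smooth muscle markers followed for 3 of 3 tested genes (65.9, 28.9 and 26.1 against 39.1, 25.6 and 31.3 FPKM) and fibro-adipogenic markers for 3 of 4 (318, 163 and 191 against 309, 130.0 and 256 FPKM). Tendon markers did so for 1 of 4 (202, 100 and 71.2 against 209, 79.4 and 148 FPKM) and satellite cell markers for 1 of 3 tested (3.43, 2.27 and 3.04 against 3.66, 2.99 and 2.93 FPKM). T and B cell markers were too low to test, at 0.11 to 0.24 FPKM summed, with Cd3g listed at 0 in all libraries. The part of these cells in the chaperone values was not tested.

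Slow fibre genes were highest in knockout library 1 for 13 of 15, and fast fibre genes lowest there for 13 of 14. The median slow fibre gene deviated by 1.95, 1.53 and -1.77 on the log2 scale in knockouts 1 to 3 and by 0.63, -2.35 and 0.33 in wild types 1 to 3. The median chaperone gene deviated by 0.46, 0.02 and -0.06 and by -0.10, -0.28 and -0.13. Both medians were highest in knockout library 1 and lowest in wild-type library 2, which was the lowest library for 8 of 15 slow fibre genes and 6 of 10 chaperone genes. The part of fibre type in the chaperone values was not tested. Of the slow fibre genes, Csrp3, Sln and Atp2a2 had the smallest p, at log2 differences of 1.63 (SE 0.66), 1.78 (SE 0.86) and 1.5 (SE 0.88), and Mylk2, Casq1 and Atp2a1 of the fast list -0.39 (SE 0.25), -0.32 (SE 0.27) and -0.28 (SE 0.29), with 0 past the threshold in either list.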

How the data were processed

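RNA-seq tables of 3 knockout and 3 wild-type gastrocnemius libraries were used. Per the file headers, each deposited table gives a read count and an FPKM value per gene; the counts are expected counts, since 26.2% to 27.5% of values are not whole, and FPKM was scaled by the authors. The submitters' processing notes name the tools RSEM 1.2.12, HISAT2 2.0.4 and Bowtie2 2.2.5 and the build GRCm38; their roles, the annotation, read filters and strand are not given in these sources. Counts were rounded and filtered with filterByExpr (minimum count 10), scaled by TMM and tested with edgeR 4.0.16's quasi-likelihood test (two-sided) in R 4.3.3; p-values were adjusted by Benjamini-Hochberg over 12775 genes, with 0.05 as threshold. Log2 CPM had a prior count of 2. Alternatives used DESeq2 1.42.0, limma 3.58.1 on log2(FPKM + 1) or with voom quality weights, other filters and scalings, a replicate block and each library left out. No 2 libraries agreed within counting noise (chi-square per degree of freedom at least 13.6). Positions are from GENCODE M21. The genes and lists were chosen with earlier results of these data known. Genes named beside the 10 are Tmem182, all heat shock factor genes with Hsbp1, and all other HSP90 genes. Also named are up to 3 genes with the smallest p per list and the nearest patterns. One gene that this rule names is not reported here.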

Additional observations from a re-analysis of the deposited data

How the results depend on the processing

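Over the alternative fits, which reuse the same libraries, 134 of 137 log2 fold changes of the 10 chaperone genes stayed above 0. Of these changes 0 passed the adjusted threshold. The 3 that reversed were those of Hspa1a (-0.46), Hspa1b (-0.38) and Dnajb1 (-0.07) without knockout library 1, and without each other library they ran up to 1.29, 1.46 and 0.37 (without knockout library 3). Leaving out 1 library at a time gave a median over the genes of 0.10 (without knockout library 1) to 0.38, 0 chaperone genes called, and 0 to 1 genes called in all. The 0 came without knockout library 2 or wild-type library 3, where Tmem182 had adjusted p = 0.0716 and 0.053 by edgeR. Library quality weights gave a median of 0.14 and library totals alone one of 0.41. With quality weights the log2 fold changes of Hspa1a and Hspa1b were only 0.01 and 0.02. DESeq2 called 6 genes in all. With the replicate number as a block, the median stayed at 0.33, 1 gene was called in all and 0 of the 10; log2 fold changes of Hspa1a and Hspa1b were 0.51 and 0.62. Same-numbered libraries correlated at 0.52, 0.18 and -0.12 in their deviations from group means, so the numbers were not taken to pair the samples. With 3 libraries a group, intervals for Hspa1a and Hspa1b were too wide to exclude either direction.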

Other observations

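Genes of the circadian clock and of the cold response were lowest in knockout library 1 for 14 of 17, against 3562 of 12775 genes tested. Their median deviation there was -0.59 on the log2 scale and was highest, at 0.39, in wild-type library 2, the library with the lowest chaperone median (-0.28). The median log2 fold change of the list was -0.15 and turned to 0.05 without knockout library 1, and 0 of 17 passed edgeR's threshold. The clock repressor genes Per1, Per2 and Per3 had the smallest p, at log2 differences of -0.59 (SE 0.21), -0.89 (SE 0.52) and -0.54 (SE 0.27). Per2 was at 0.73, 1.0 and 1.54 FPKM in knockouts 1 to 3 and at 1.39, 3.53 and 0.99 FPKM in wild types 1 to 3.

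Immediate early genes, transcribed within minutes of a stimulus, were highest in knockout library 1 for 13 of 21, with a median deviation of 0.52 there and between -0.17 and 0.04 in the other 5 libraries. Egr1 was at 19.38, 12.98 and 10.46 FPKM in knockouts 1 to 3 and at 6.60, 5.01 and 5.71 FPKM in wild types 1 to 3 (1.22 on the log2 scale, SE 0.16, or 1.06 without knockout library 1). Like Hspa5 it was higher in each knockout library than in any wild-type library, as was Junb (0.62, SE 0.17), while Myc had a log2 fold change of -0.72 (SE 0.30). After TMM scaling 3 of the 21 were higher in this way, against 4.7% of all genes tested. In the same sense 1 of the 21 was lower, against 576 of the 12775 genes tested. By edgeR 0 of the 21 passed after adjustment (0.00783% of all genes tested), and 3 (Egr1, Junb and Myc) were under 0.05 before it (3.55% of all genes tested). DESeq2 called 1 of the 21, Egr1 (adjusted p = 6.45e-07), and 0.047% of all genes tested. Of the clock and cold-response genes, Per1 alone was under 0.05 before adjustment by edgeR, and DESeq2 called none.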
